A study of Mus musculus with 3 samples.

Results

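The immediate early and AP-1 genes examined here were Fos, Fosb, Fosl2, Jun, Junb, Jund, Atf3, Egr1, Nr4a1 and Ier2, taken by name, 10 of the 22359 protein-coding genes of the mouse annotation that have a start on chromosomes 1 to 19, X or Y. All peaks that overlapped their gene bodies and 50 kb on each side were taken from the ATAC-seq peak list of each library. This gave 92 of 60898 peaks in wild type (WT), 63 of 150354 peaks 1 week after Taf4 inactivation and 93 of 151725 peaks after 5 weeks. Immediate early genes are switched on within minutes of a stimulus from transcription factors already present in the cell. In beta cells the stimuli include glucose, calcium entry and cAMP, and the same genes respond to stress and to the handling of tissue. Fos and Jun family proteins pair to form AP-1, which binds DNA at TGANTCA, whereas the promoters of the genes themselves are known for serum response elements and cAMP response elements (CRE) bound by SRF and CREB.

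ATAC-seq uses a transposase to cut accessible DNA, so that a peak marks a stretch of open chromatin. Taf4 is a subunit of TFIID, the general factor that recognises promoters. The cells came from isolated Langerhans islets of C5LBl6 mice, dissociated with Accutase, and the groups were wild type, Taf4 KO at 1 week and Taf4 KO at 5 weeks, with 1 library each. In the study, floxed Taf4 alleles were inactivated in adult mice by tamoxifen and a Cre-ERT2 driven by an insulin promoter, so that islet cells other than beta cells kept Taf4. Its controls carried the same driver with unmodified Taf4 alleles and also received tamoxifen, whereas the label of the WT library gives its genotype only and no time. With 1 library per group no difference between the groups could be tested, and all values below describe these 3 libraries. Where 3 values stand together without a group name, they are those of WT, of 1 week and of 5 weeks, in this order.

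In mm9, the Fos family genes lie at chr12:86814840-86818223 (Fos, plus strand), chr7:19888070-19895394 (Fosb, minus) and chr5:32438845-32460204 (Fosl2, plus). The Jun family genes, which have no introns, lie at chr4:94715725-94718913 (Jun, minus), chr8:87500811-87502617 (Junb, minus) and chr8:73221638-73224515 (Jund, plus). Atf3 lies at chr1:192994175-193007219 (minus), Egr1 at chr18:35020861-35024638 (plus), Nr4a1 at chr15:101097277-101105223 (plus) and Ier2 at chr8:87185230-87186751 (minus). The gene bodies are short, so most of each locus is flank.

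The libraries differed in depth. The low end of the background behind the peaks (percentile 1 of each list) was a pileup of 3.66, 6.45 and 9.38 reads. It was recovered from fold and p-value, both averaged over the peak. The peaks covered 39.4, 99.3 and 105 Mb. The −log10 q of a peak grows with depth, so ranks within a library are given beside it. All 9 beta cell markers had a promoter peak in the 3 libraries. Of the 6 alpha and delta cell markers 3, 5 and 6 had a promoter peak, of 7 endothelial markers 3, 4 and 6, of 7 stellate and fibroblast markers 1, 3 and 5, of the 8 acinar markers found in the annotation 2, 2 and 3, and of 8 immune markers 0, 1 and 1. Pecam1, Ptprc and Col1a1, which define endothelial, immune and stromal cells, had no promoter peak in WT, and the promoters of Gcg and Sst had one in the Taf4 KO libraries and not in WT. Whether a smaller share of a cell type or less open chromatin per cell lies behind a lower value cannot be told apart in such samples, and the part of these markers in the results below was not tested.

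Promoter sequences of Fos, Fosb, Nr4a1 and Ier2, which hold CRE or EGR matches, are shown first. The promoter peaks described below lie over them, except at Ier2 at 1 week, where no peak was called over the stretch. None of these sequences held a CArG box, the core of the serum response element. Each is the stretch just upstream of the annotated start in mm9, 5′ to 3′ along the gene, with the CRE TGACGTCA, its short core TGACG and the EGR site (GCGGGGGCG or GCGTGGGCG) in capitals, found on both strands.
Fos promoter (chr12:86814720-86814839, plus strand): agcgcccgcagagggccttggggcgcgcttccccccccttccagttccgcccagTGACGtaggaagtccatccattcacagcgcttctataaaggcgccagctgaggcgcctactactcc
Fosb promoter (chr7:19895395-19895514, minus strand): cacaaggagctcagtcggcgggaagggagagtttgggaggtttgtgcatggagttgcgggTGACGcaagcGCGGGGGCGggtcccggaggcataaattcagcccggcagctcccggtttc
Nr4a1 promoter (chr15:101097157-101097276, plus strand): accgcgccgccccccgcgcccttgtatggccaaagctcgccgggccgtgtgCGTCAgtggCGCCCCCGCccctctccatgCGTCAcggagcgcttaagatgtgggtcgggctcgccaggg
Ier2 promoter (chr8:87186752-87186871, minus strand): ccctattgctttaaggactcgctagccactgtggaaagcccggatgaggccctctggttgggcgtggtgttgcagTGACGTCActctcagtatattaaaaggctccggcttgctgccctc

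Matches in the 250 bp upstream of the outermost start were counted in all 10 genes and in 22354 promoters with full sequence. The CRE core TGACG lay in 6 of the 10 promoters, those of Fos, Fosb, Junb, Egr1, Nr4a1 and Ier2, and in 19.4% of all promoters. Nr4a1 held 4 copies, at -233, -213, -69 and -40. The full CRE TGACGTCA, which contains the core on both strands in overlap, lay only in the Ier2 promoter among the 10, at -45 to -38, and in 1.94% of all promoters. Jund has a downstream start, and the window 5′ of that start, not among the 10, held a TGACGTCA at -223 to -216, a further core at -106 to -102, an EGR site at -84 to -76 and a CCAAT at -94 to -90. Among the 10 windows the EGR site lay in those of Fosb, Fosl2 and Nr4a1 and in 4.01% of all promoters. Egr1 held a pair of CArG boxes, the core of the serum response element, at -105 to -96 and -83 to -74 (1.33% of all promoters). CCAAT lay in Jun, Junb and Egr1 (35.0% of all promoters), and no AP-1 site TGANTCA was found in any of the 10 windows (5.89% of all promoters). Only this AP-1 pattern was searched, and the TGACATCA in the Jun window is not a match to it. The median GC content of the windows was 64.0%, against 54.4% over all promoters.

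The promoters of these genes were open in all 3 libraries with a single exception. A promoter peak, that is a peak overlapping the stretch from 1000 bp upstream to 100 bp downstream of a protein-coding start, was called at 10 of 10 genes in WT, 9 of 10 at 1 week and 10 of 10 at 5 weeks. Such a peak was found at 59.0%, 55.9% and 65.6% of all protein-coding genes. The outermost start itself lay inside a peak at 9, 8 and 9 of the 10 genes, against 51.4%, 46.6% and 57.7% of all genes. The gene without a promoter peak at 1 week was Ier2, a nuclear protein gene induced by growth factors. Over the 13197 genes called in WT, the share no longer called was 14.5% at 1 week and 1.89% at 5 weeks, so that 1 of 10 and 0 of 10 were close to the shares over all genes. No gene of the group could gain a peak, whereas 13.3% and 18.9% of the genes without a WT promoter peak had one at 1 week and at 5 weeks.

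**Figure D1:**
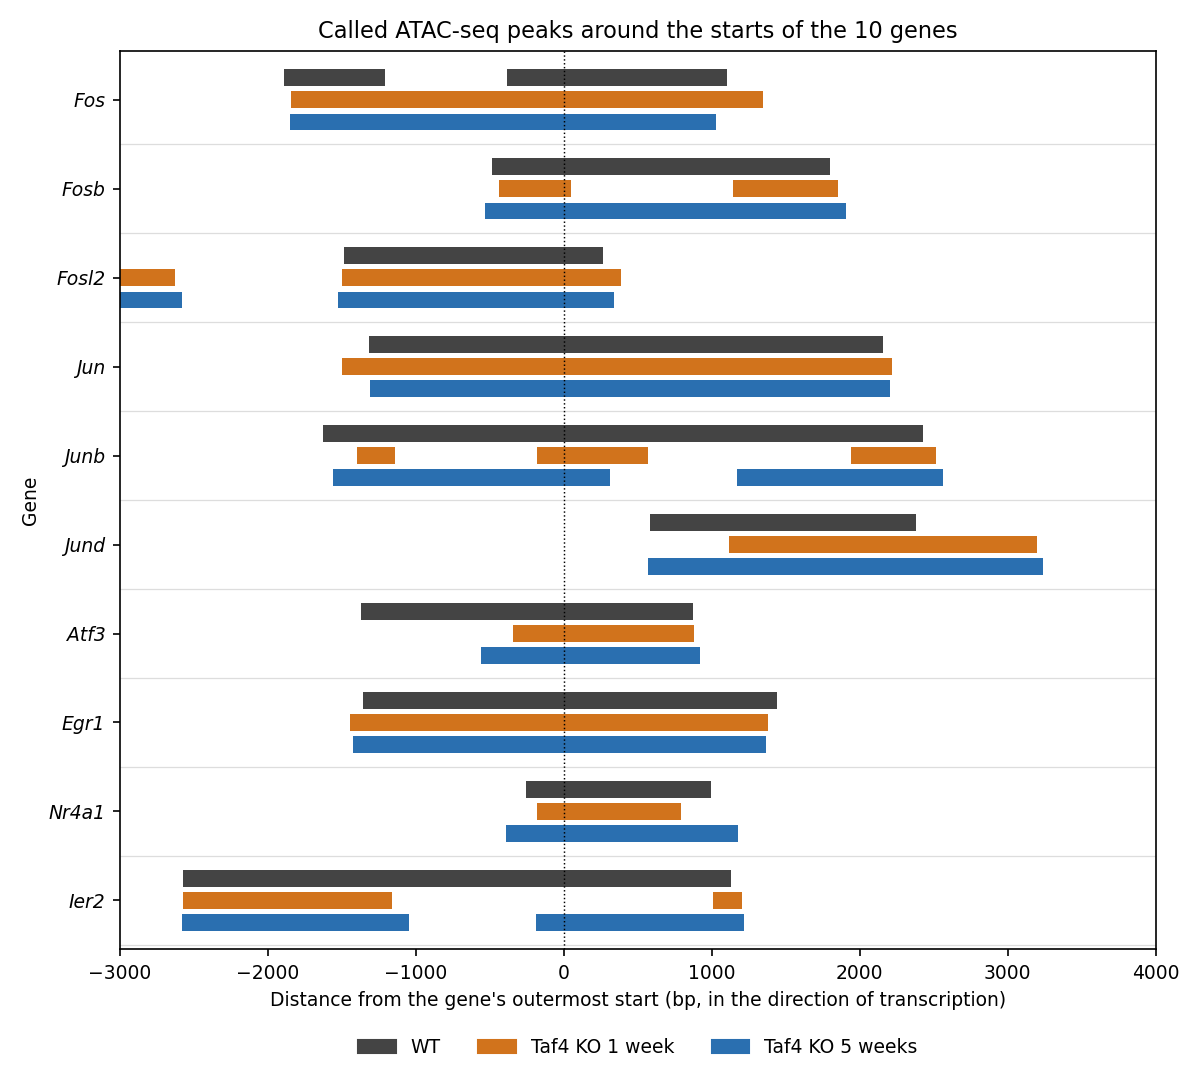
Called peaks around the outermost annotated start (dotted line, distance in bp along the gene) of the 10 genes, as bars for WT, Taf4 KO 1 week and Taf4 KO 5 weeks. Jun, Egr1 and Fosl2 had nearly the same extent in the 3 libraries, while the long WT peaks of Ier2 and Junb were broken up at 1 week and at 5 weeks.

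The peaks were wide. The strongest promoter peak had a median width of 2265, 1887 and 2158 bp over the group, against 1010, 868 and 1073 bp over all called genes. It was wider than the median of all genes at 10 of 10 genes in WT, 7 of 9 at 1 week and 10 of 10 at 5 weeks. At several genes the peak ran from upstream of the start over most of the short transcription unit.

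Ier2 and Junb, both on chromosome 8, showed the same kind of break. The WT peak of Ier2 was 3706 bp long, from -2572 to 1133. At 1 week only its ends were called, from -2574 to -1163 and from 1006 to 1205, and the start and the CRE shown above lay in the gap. At 5 weeks the upstream end ran from -2577 to -1049 and a second piece from -186 to 1217 again held the start. Junb, whose protein is an AP-1 subunit that often restrains Jun, had a WT peak of 4054 bp, from -1624 to 2429. At 1 week 3 pieces were called, from -1399 to -1138, -179 to 566 and 1941 to 2512, and at 5 weeks the pieces ran from -1563 to 312 and from 1170 to 2564. Fosb, an AP-1 subunit, was broken up at 1 week only, from a WT peak of 2285 bp to pieces of 487 bp over the start and 714 bp inside the gene, and was called as 2441 bp at 5 weeks. In contrast Fos, the founding Fos family member, was called as separate pieces in WT, from -1892 to -1210 and from -383 to 1102, and as a continuous peak of 3187 bp at 1 week and 2875 bp at 5 weeks. The breaks thus went both ways between WT and 1 week, and the part of library depth in them was not tested.

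At the other genes the extent differed less, Atf3 excepted. Jun, the founding Jun family member, had peaks of 3476, 3717 and 3514 bp. Egr1, a zinc finger factor, had peaks of 2800, 2826 and 2789 bp. Fosl2, which encodes Fra-2, had peaks of 1747, 1887 and 1866 bp. These differed by little between the 3 libraries. Atf3, a stress-induced repressor of the ATF family, had peaks of 2245, 1225 and 1477 bp, its upstream edge moving from -1368 in WT to -344 at 1 week and -558 at 5 weeks. Nr4a1, an orphan nuclear receptor, had peaks of 1251, 971 and 1563 bp. The peak of Jund, the Jun family member that most cells express without stimulation, lay over its downstream start, from 583 to 2377 in WT, 1113 to 3195 at 1 week and 568 to 3236 at 5 weeks. Over the 4 kb centred on the start, the peaks of the 10 genes covered 23992, 17789 and 22817 bp. The median change per gene was -405 bp at 1 week and 3.5 bp at 5 weeks, against -169 and 48.0 bp over all genes with a WT promoter peak. The largest changes at 1 week were those of Junb and Ier2, -2557 and -2096 bp.

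Absence of a promoter peak at 1 week moved with the base composition of the surroundings. When the genes called in WT were ranked by GC content over 1 Mb and divided into 5 groups of like size, 2.84%, 7.50%, 11.2%, 20.1% and 30.7% of them were not called at 1 week, from the lowest to the highest group. Ier2, at 49.2% GC, lay in the highest group together with Fosb, Jund and Nr4a1. Junb and Atf3 lay in the next group, Fos and Egr1 in the middle group, Fosl2 in the group below it, and Jun, at 41.5% GC, in the lowest. The part of GC content in the absence at Ier2 was not tested. Among genes with a TGACGTCA in the upstream window and a WT peak, 17.0% of 370 had no peak at 1 week, with the core TGACG 13.0% of 3457 and with an AP-1 site 17.6% of 516, all near the 14.5% of all genes.

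By strength, the promoter peaks of these genes were below the middle of the promoters called in each library. Their strongest peak had a median percentile among the promoter peaks of called genes of 29.7, 26.0 and 40.4, ranging from 18.6 to 66.0 in WT, 13.4 to 50.1 at 1 week and 17.7 to 51.6 at 5 weeks. Among all peaks of the library, promoters included, the medians were 73.7, 76.5 and 86.5, against 85.1, 87.7 and 89.7 over all called genes. The peaks of this group were thus wide but of moderate average enrichment. Fold and −log10 q are averages over the whole peak. The part of peak width in these ranks, and in those of single genes below, was not tested.

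The −log10 q of Fos was 9.71, 3.95 and 13.2. Its percentile among promoters was 38.8, 29.8 and 51.5. Fos therefore ranked lowest at 1 week and highest at 5 weeks. Fosb followed the same order, with −log10 q of 6.69, 2.44 and 10.5 and percentiles of 24.8, 13.4 and 39.3. So did Atf3, with −log10 q of 11.4, 3.43 and 13.0 and percentiles of 46.8, 24.4 and 50.6. In these 3 genes the rank among promoters was below WT at 1 week and above it at 5 weeks. The value at 1 week was below WT on every scale tried on which the peak was called. For Fosb this value is that of the piece over the start. The 714 bp piece inside the gene, outside the promoter window, had a −log10 q of 4.42 and a fold of 3.1 at 1 week. Its percentile in the list was 81.6, against 69.5 for the WT peak, which had a fold of 2.95. At 5 weeks Fos and Fosb were above WT on all promoter scales, at 39.5 against 33.2 and 25.7 against 19.3 among the promoters called in all 3 libraries, but below it among all peaks with lists of equal number, at 75.3 against 79.6 and 65.4 against 69.5. Atf3 at 5 weeks was below WT on both of these scales, at 38.5 against 41.4 and 74.7 against 83.7.

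Jun and Egr1 ranked higher among promoters in both Taf4 KO libraries than in WT. The −log10 q of Jun was 7.33, 5.96 and 10.2, and its percentile among promoters was 27.7, 48.7 and 38.1. The −log10 q of Egr1 was 7.43, 6.13 and 12.2, with percentiles of 28.1, 50.1 and 46.8. Among the promoters called in all 3 libraries Jun had 22.0, 43.6 and 24.4 and Egr1 22.5, 45.1 and 34.1, so that the order against WT was the same and the 5 week value of Jun came close to WT. Among all peaks with lists of equal number it turned, with 72.0, 68.4 and 64.1 for Jun and 72.4, 69.7 and 71.9 for Egr1. Fosl2 and Nr4a1 were also higher among promoters in both. The percentile of Fosl2 was 27.9, 36.9 and 38.6, from −log10 q of 7.38, 4.66 and 10.3. That of Nr4a1, the lowest of the group in WT, was 18.6, 26.0 and 41.5, from −log10 q of 5.21, 3.57 and 11.0. With lists of equal number Fosl2 and Nr4a1 were lower than WT at 1 week, at 27.7 and 15.1 among promoters. Among all peaks of such lists they had 57.3 against 72.2 and 42.0 against 61.9.

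Jund, Junb and Ier2 ranked lower among promoters in both Taf4 KO libraries or were not called. This order held with lists of equal number, among promoters and among all peaks, and only Junb at 5 weeks turned among all peaks of the lists as deposited, at 78.4 against 74.9. Jund was the strongest of the group in WT, at a −log10 q of 15.7 and a percentile among promoters of 66.0. It had 3.32 and 23.5 at 1 week, and 13.2 and 51.6 at 5 weeks. This was the largest drop of the 9 genes called in both libraries. The Junb peak over the start had −log10 q of 8.11, 3.10 and 6.97 and percentiles of 31.2, 20.9 and 24.1. At 5 weeks the other Junb piece, outside the promoter window, was stronger, with a −log10 q of 9.24. Its percentile among all peaks was 83.8, above the 74.9 of the WT peak. Ier2 had −log10 q of 10.6 in WT and 5.21 at 5 weeks, with percentiles of 43.0 and 17.7, and the piece upstream of it, outside the promoter window, had 10.9 at 5 weeks.

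Fold enrichment over background moved less than −log10 q. It was 2.91, 2.79 and 3.24 at Fos, 2.49, 2.51 and 2.60 at Jun, 2.47, 2.93 and 2.95 at Egr1, and 2.72, 2.87 and 3.28 at Nr4a1. At Jund it was 3.31, 2.68 and 3.0, and at Ier2 2.85 in WT and 2.22 at 5 weeks. The folds were 2.95, 2.57 and 3.30 at Fosb, 2.80, 3.02 and 2.87 at Fosl2, 2.41, 2.63 and 2.36 at Junb, and 3.33, 2.85 and 3.46 at Atf3. Jund and Ier2 were thus below WT by fold and by rank among promoters in each Taf4 KO library in which they were called. Fos, Fosb and Atf3 were so at 1 week only, and Junb at 5 weeks only.

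**Figure D2:**
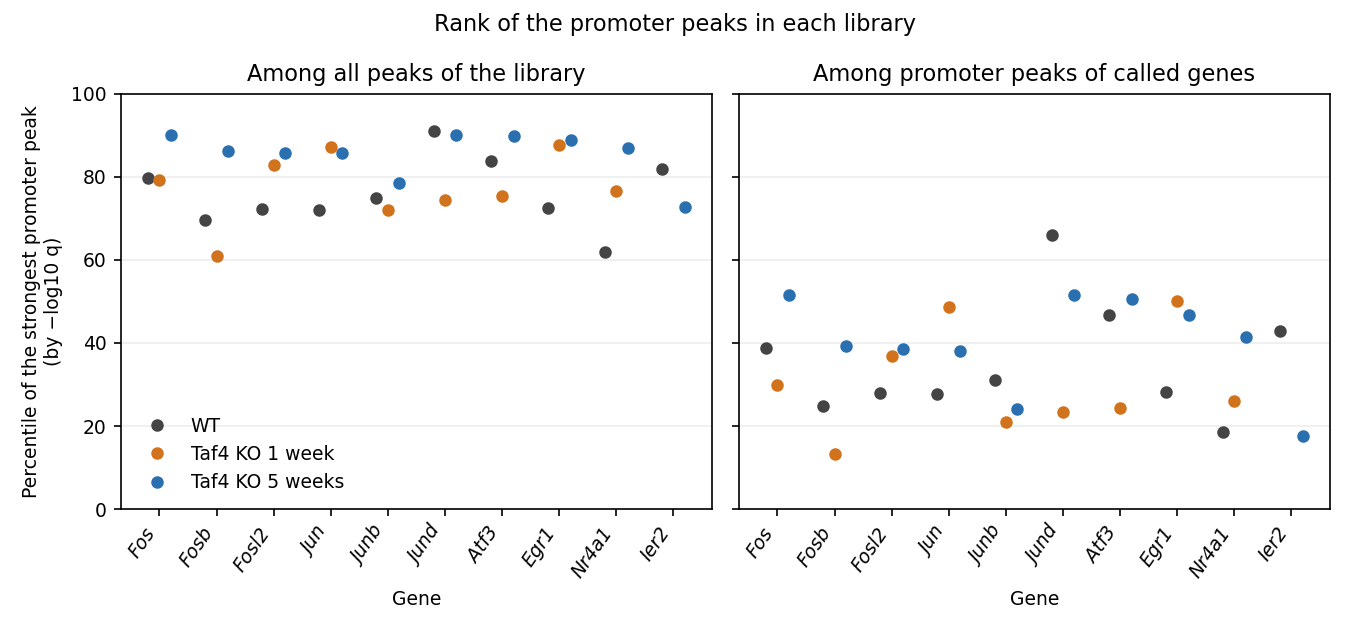
Percentile of the strongest promoter peak of each gene by −log10 q, among all peaks of its library (left) and among the strongest promoter peaks of all called genes (right), with 1 point per library. On the right all 29 points but 4 lie at or below 50.1, and Ier2 has no point at 1 week.

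The median change of the percentile among promoters from WT was -8.95 at 1 week over 9 genes, 4 of them higher, and 10.6 at 5 weeks over 10 genes, 7 of them higher. The medians over all genes called in both libraries were 1.44 and 3.93. Among all peaks of the library the median changes were -0.536 at 1 week and 12 at 5 weeks, with 2.01 and 5.13 over all genes. The direction of the changes on that scale depended on the length of the lists. With the Taf4 KO lists shortened to the number of WT peaks the medians became -31.3 at 1 week and -7.75 at 5 weeks, against -7.78 and -4.81 over all genes. The 5 week value thus turned from higher to lower, and the 1 week value was lower in every setting except where only the outermost starts were used.

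Away from the promoters, the 10 loci held 64, 40 and 63 distal peaks, a distal peak being one outside the promoter window of every protein-coding gene. A further 18, 14 and 20 peaks lay at promoters of other genes. The number of peaks per 1000 peaks of the list was 1.51, 0.419 and 0.613, the Taf4 KO lists being the longer ones. The median locus of the group held 8.50, 5.50 and 9.50 peaks, against 5, 5 and 8 over the loci of all protein-coding genes. Few of the distal peaks were pieces next to a member's promoter peak, namely 1, 5 and 2.

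**Figure D3:**
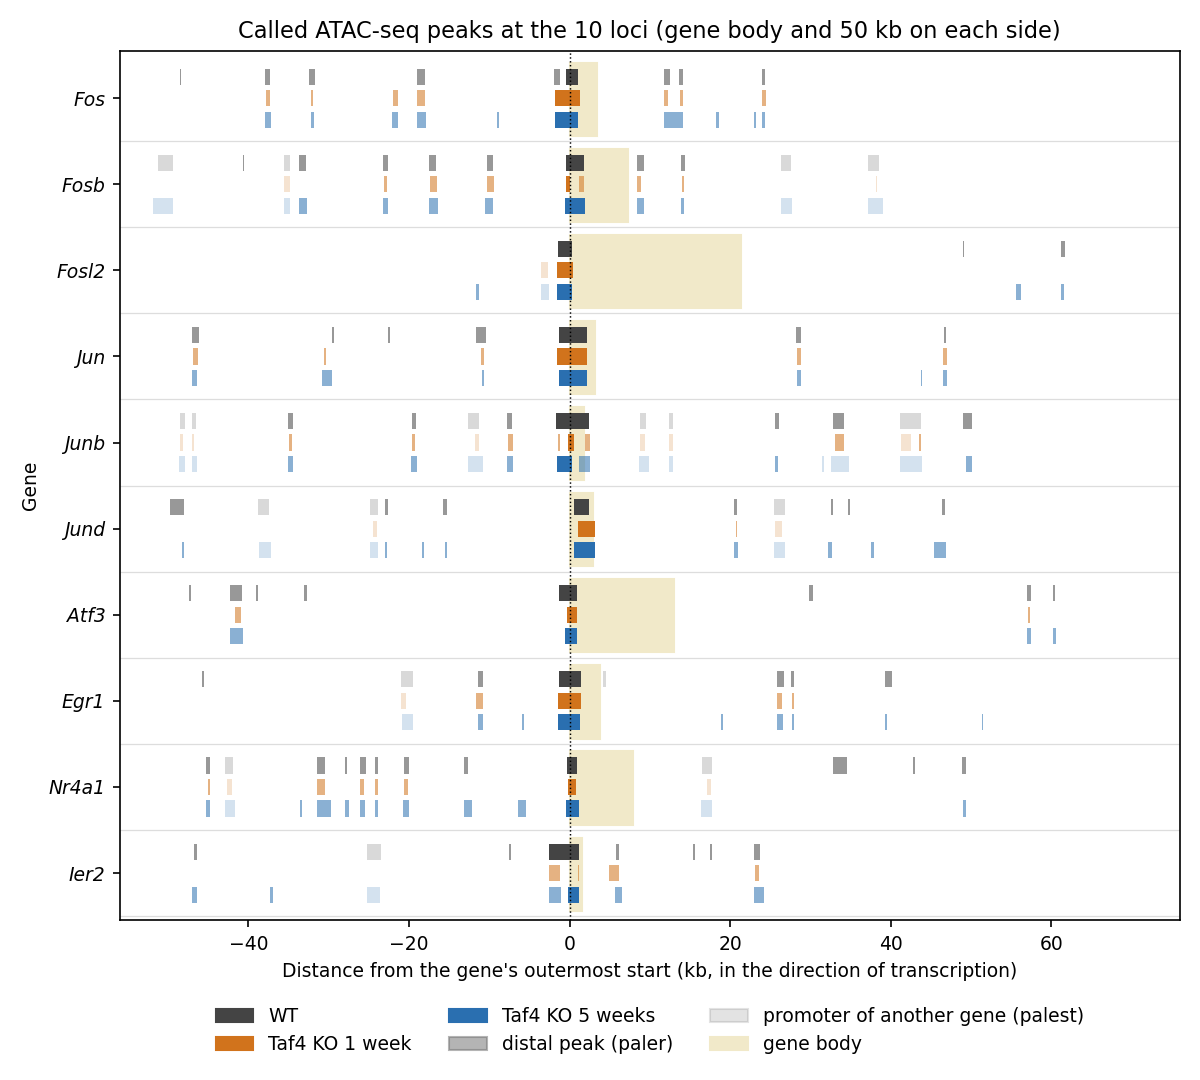
Peaks at the 10 loci by distance from the outermost start (kb, in the direction of transcription), with the gene body shaded, and the promoter peaks of the 10 genes in full colour, distal peaks paler and promoter peaks of other genes palest. The 1 week row holds fewer distal bars than the WT row at every gene but Junb, with the largest differences at Jund, Atf3 and Nr4a1. Nearly all bars of the 1 week row sit under a WT bar.

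The distal peaks of the Taf4 KO libraries at these loci were largely those of WT. At 1 week 38 of 40 distal peaks (95%, 95% Wilson interval 83.5 to 98.6) overlapped a WT peak, against 19.4% of all distal peaks of that library. At 5 weeks 48 of 63 (76.2%, 64.4 to 85.0) overlapped one, against 25.8%. All 40 distal peaks of 1 week were overlapped at 5 weeks, against 48.9% of all distal peaks. The intervals cover counting error only, and peaks of 1 locus are not independent. In the Taf4 KO libraries the distal peaks at the loci were also stronger than most. Their median percentile in the list was 85.0 at 1 week and 83.9 at 5 weeks, against 46.7 and 45.9 over all distal peaks. In WT it was 48.0, against 41.9. The values over all distal peaks are those of the whole genome. Distal peaks at the loci of all protein-coding genes were not counted apart. Whether the overlap and the ranks are particular to these 10 loci was therefore not tested.

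In the other direction, 33 of the 64 distal WT peaks had a counterpart at 1 week (51.6%, 39.6 to 63.4) and 49 at 5 weeks (76.6%, 64.9 to 85.3). The shares over all distal WT peaks were 55.5% and 74.6%, and lay inside these intervals. By gene, 7 of 8 were overlapped at 1 week at Fos, 5 of 7 at Fosb, 4 of 6 at Jun and Junb each, 3 of 5 at Egr1, 5 of 10 at Nr4a1, 2 of 6 at Ier2, 2 of 7 at Atf3, 1 of 7 at Jund and 0 of 2 at Fosl2. The share was highest at Fos and lowest at Fosl2 and Jund, on few peaks each. At 5 weeks 6 of 7 were overlapped at Jund and 3 of 7 at Atf3, so that the share at Jund was above that of all distal WT peaks and that at Atf3 below it.

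Which distal WT peaks had a counterpart went with their strength. Of the 33 below the percentile of 50 in WT, 5 (15.2%) were overlapped at 1 week and 18 (54.5%) at 5 weeks, against 37.4% and 60.0% of all distal WT peaks of that class. Of the 18 between 50 and 80, 15 (83.3%) and 18 were overlapped, against 77.3% and 94.9%. All 13 at or above 80 were overlapped in both, against 94.8% and 99.1%.

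**Figure D4:**
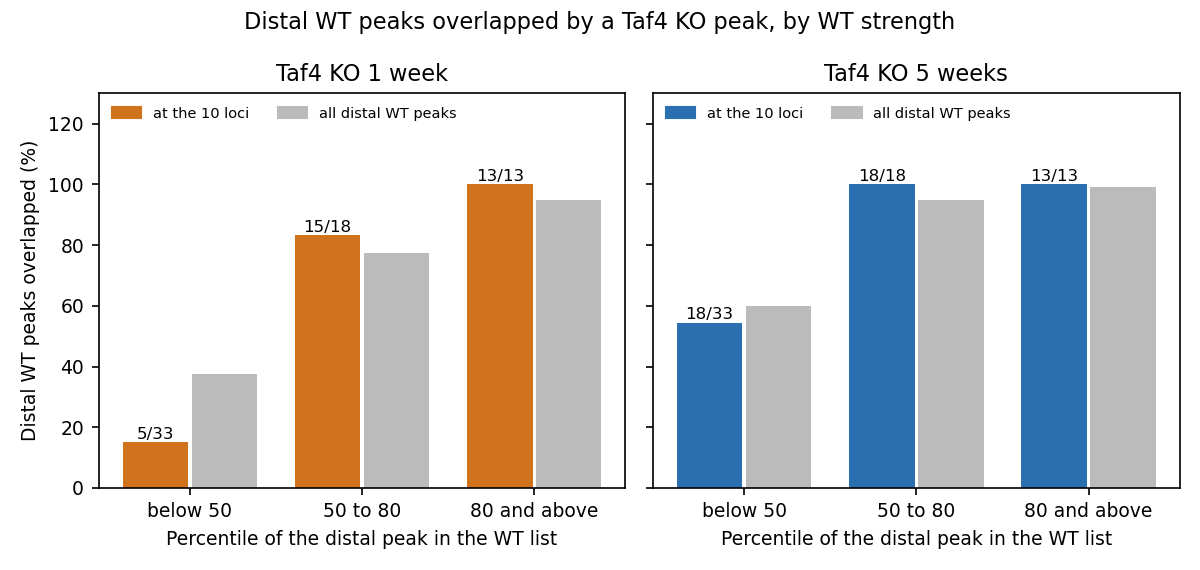
Share of distal WT peaks (%) overlapped by a Taf4 KO peak, in 3 classes of their percentile in the WT list, for the 10 loci (coloured, with counts) and for all distal WT peaks (grey). All 13 strong peaks at the loci were overlapped in both Taf4 KO libraries, and 5 of 33 weak ones at 1 week.

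Peaks of the 3 libraries that overlapped each other were merged, which gave 76 distal regions. Of these, 31 were called in all 3 libraries, 15 in WT and at 5 weeks, 15 in WT only, 14 at 5 weeks only and 1 at 1 and 5 weeks. None was called at 1 week only, and none in WT and at 1 week without 5 weeks. The 15 regions called in WT only were weak, with percentiles from 2.20 to 45.7 and a median of 15.4. The 14 called at 5 weeks only had percentiles from 2.09 to 78.2. Every distal region at these loci that reached the percentile of 80 in some list was thus called in WT and in at least 1 Taf4 KO list.

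Among the 31 shared regions the percentile was higher than in WT in 24 at 1 week and in 30 at 5 weeks, with median changes of 6.90 and 15.6. Over the whole genome 25334 distal regions were called in all 3 libraries, of which 88.0% and 93.3% ranked higher than in WT, with median changes of 22.2 and 22.0. With lists of equal number 12 of 29 shared regions at the loci (41.4%) were higher at 1 week and 19 (65.5%) at 5 weeks, against 61.8% and 57.3% over the genome. The higher ranks at the loci are thus not more frequent than over the genome at 1 week. The regions that the results turn on are shown with 120 bases of the plus strand of mm9, with AP-1 sites TGANTCA in capitals. The region named Jun 46.8 kb had the highest rank of the group at 1 week, and the other regions are those with an AP-1 site among the regions open in all 3 libraries.
Jun 46.8 kb (chr4:94672085-94672204, plus strand): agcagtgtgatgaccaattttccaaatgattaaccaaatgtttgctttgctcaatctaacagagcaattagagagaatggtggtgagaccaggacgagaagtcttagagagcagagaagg
Jun 28.5 kb (chr4:94690350-94690469, plus strand): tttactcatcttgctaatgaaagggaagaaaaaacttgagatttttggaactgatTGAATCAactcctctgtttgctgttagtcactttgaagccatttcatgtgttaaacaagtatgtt
Fosb -22.9 kb (chr7:19918349-19918468, plus strand): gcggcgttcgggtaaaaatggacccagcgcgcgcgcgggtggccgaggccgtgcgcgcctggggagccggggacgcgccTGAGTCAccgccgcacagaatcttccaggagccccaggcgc

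The region 46.8 kb downstream of Jun lay within Gm12694, annotated on the other strand as a transcript without a protein, and is the region with the highest rank at 1 week. Its −log10 q was 6.73, 23.9 and 26.9, with folds of 4.35, 6.42 and 5.74 and percentiles of 69.6, 99.7 and 98.5. It was thus above WT by fold, −log10 q and rank in both Taf4 KO libraries. The region 28.5 kb downstream of Jun, also in Gm12694, went the other way by fold, at 5.58, 3.50 and 4.09, with percentiles of 88.9, 88.2 and 89.8. These regions lay 18.3 kb apart.

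Weak WT regions that ranked high after Taf4 inactivation lay next to Fosb and Ier2. The region 8.8 kb downstream of the Fosb start, just past the end of the gene, had folds of 2.22, 3.52 and 3.54 and percentiles of 7.70, 87.8 and 85.1. The region 5.7 kb downstream of the Ier2 start had folds of 2.30, 3.09 and 3.61 and percentiles of 5.45, 82.5 and 85.6. The region 34.7 kb upstream of Junb, over a coding exon of Best2, had folds of 4.19, 5.07 and 4.73 and percentiles of 73.7, 98.0 and 94.9. The region 46.6 kb upstream of Jun, near the far end of its locus, had folds of 3.70, 3.64 and 3.79 and percentiles of 63.6, 90.1 and 87.6. These 4 regions and that 46.8 kb from Jun were singled out after their values were seen, as those at or above the percentile of 80 at 1 week and at least 20 points above WT in both Taf4 KO lists. Over the genome the median change of shared distal regions was 22.2 at 1 week and 22.0 at 5 weeks, so a rise of 20 points was common. The share of regions over the genome that met the rule was not counted. The regions 24.2 kb downstream of Fos, 7.4 kb upstream of Junb and 20.7 kb downstream of Jund also rose that much in both, but lay below 80 at 1 week. With lists of equal number all 5 singled out regions were above WT in both, by less than 20 points for Jun 46.6 kb upstream (75.7 and 69.1) and, at 5 weeks, for Junb (87.2). With lists scaled to the WT background, Jun 46.6 kb upstream had 63.8 at 5 weeks, against 63.6 in WT. The choice used the same ranks, so neither setting is a separate check.

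**Figure D5:**
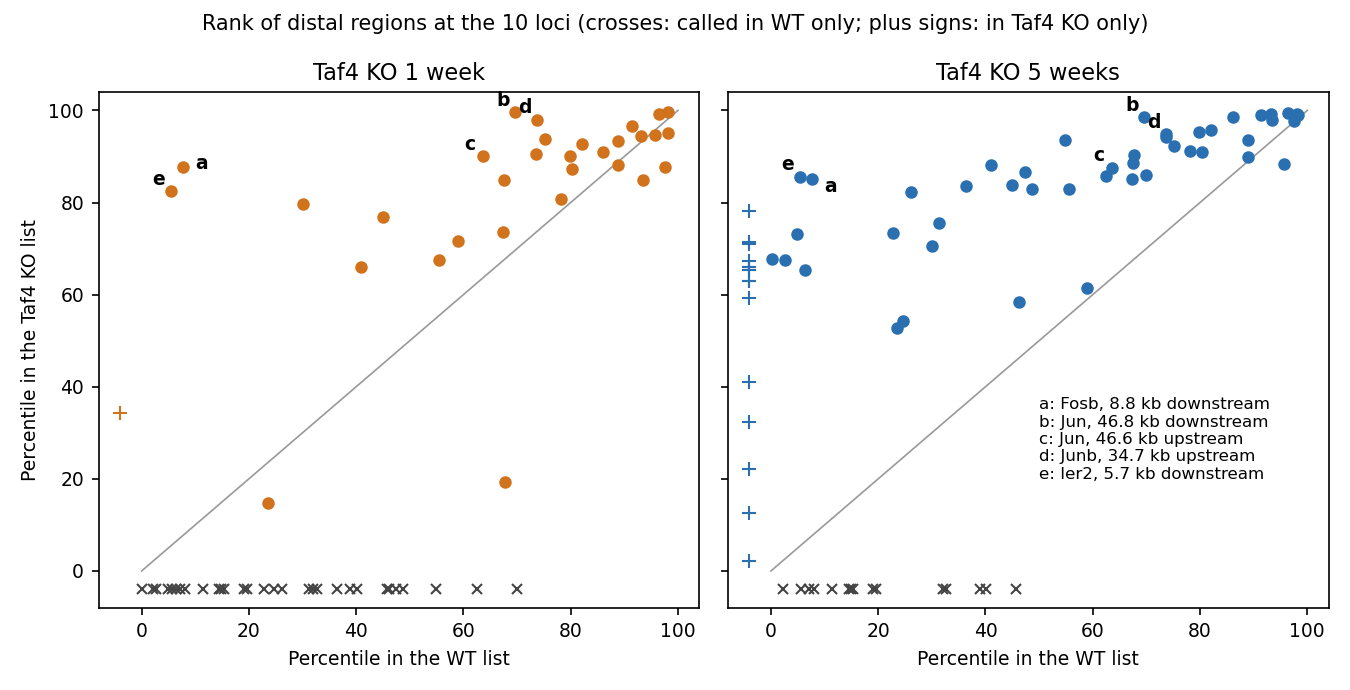
Percentile of each distal region in the WT list (horizontal) against its percentile in the Taf4 KO list (vertical) at 1 week (left) and 5 weeks (right), with crosses for regions called in WT and not in that list and plus signs for the reverse. The 5 regions lettered were chosen as lying at least 20 points above the line of equal rank in both lists and at or above 80 at 1 week. Most crosses lie at low WT percentiles.

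The strongest distal WT region of each gene was called in both Taf4 KO libraries at 9 of the 10 genes. For Fos it lay 18.4 kb upstream, with −log10 q of 24.2, 6.11 and 23.8. For Nr4a1 it lay 20.4 kb upstream, with 26.1, 10.6 and 29.7. For Ier2 it lay 23.6 kb downstream, over a coding exon of Cacna1a, with 25.8, 22.5 and 31.5. These had a higher −log10 q, averaged over the peak, than the promoter peaks called at the same genes, which were wider. The region 19.4 kb upstream of Junb, inside Hook2, had 21.8, 19.1 and 32.0, and ranked at 96.4, 99.2 and 99.4. The region 10 kb upstream of Fosb had 17.9, 5.25 and 24.4. Like that of Fos, it ranked lower at 1 week than in WT, at 85.0 against 93.4. The regions of Jun (14.2, 6.33 and 13.0), Egr1 (9.98, 5.97 and 14.0) and Atf3 (7.77, 7.31 and 17.5) were weaker. The strongest distal WT region of Jund, 20.7 kb downstream, had 2.95, 2.69 and 11.8. That of Fosl2, 61.5 kb downstream, had 6.81 in WT and 10.4 at 5 weeks and was the only one not called at 1 week.

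Motifs were also counted in the middle 300 bp of the 76 distal regions. An AP-1 site TGANTCA lay in 9 (11.8%), against 13.8%, 10.1% and 10.3% of the middles of all distal peaks. It lay in 2 of the 31 regions called in all 3 libraries and in 4 of the 15 called in WT only, 3 of which were at Atf3, 30.1 kb downstream and 32.9 and 38.9 kb upstream, at WT percentiles of 38.9, 8.11 and 40.1. The CRE core TGACG lay in 17 regions (22.4%), against 13.7%, 7.65% and 9.73% of all distal peaks, and in 13 of the 31 shared regions (41.9%). Motifs were not counted in the distal regions shared by the 3 libraries over the genome. The shares among the 31 thus have no matching value. The only full CRE among the regions lay 11.2 kb upstream of Egr1. The EGR site lay in 3 regions (3.95%, against 0.365%, 0.143% and 0.177%), among them that 26.2 kb downstream of Egr1 and that 7.4 kb upstream of Junb. No region held a CArG box, which 1.46%, 1.77% and 1.57% of all distal peaks held. The CTCF motif, searched after the data were seen, lay in 2 regions (2.63%, against 2.38%, 0.567% and 1.44%). Regions are merged from up to 3 peaks, so their middles are not those of single peaks, and a match does not show binding.

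Promoters of neighbouring genes within the loci formed 21 further regions. Of these, 14 were called in all 3 libraries, 4 in WT and at 5 weeks, and 1 each in WT only, at 5 weeks only and at 1 and 5 weeks. Those called in WT and at 5 weeks were Rtn2 and Cd3eap with Ppp1r13l at Fosb, Pgpep1 at Jund, and Nacc1 with Trmt1 at Ier2. The Nacc1 and Trmt1 peak, 1782 bp in WT and 1597 bp at 5 weeks, had no counterpart at 1 week, as the Ier2 start had none. The Vasp promoter near Fosb was called over 1420, 200 and 1861 bp, so it too was narrow at 1 week.

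Promoter peaks were also counted at genes related to the group by function. Of 11 other AP-1 and bZIP partners, 8, 6 and 10 had a promoter peak. Fosl1, which encodes Fra-1, and Mafk, a small Maf protein, had one in WT and at 5 weeks and not at 1 week. Batf2 and Batf3 had one at 5 weeks only, at weak percentiles in the list of 29.3 and 39.5, and Batf had none. Of 25 other immediate early genes, 23, 22 and 25 had a promoter peak. Npas4, an activity-dependent factor known in beta cells, had a −log10 q of 9.03 in WT and 10.8 at 5 weeks and no peak at 1 week. Egr4 was also without one at 1 week, at 2.02 in WT and 1.83 at 5 weeks. Egr3 was called at 5 weeks only, at 6.66. Ctgf, a matricellular protein gene, was called in both Taf4 KO libraries and not in WT, at 2.67 and 4.82. Of 16 upstream regulators, among them Srf, Creb1, the ternary complex factor genes and MAP kinases, 16, 15 and 16 had a promoter peak, and Mapk3, which encodes ERK1, was the one without a peak at 1 week. Over these 3 lists, counting each gene in each list, 5 of 47 WT promoter peaks (10.6%) were absent at 1 week, against 14.5% over all genes. Their median percentiles among promoters in WT were 47.4, 43.0 and 65.7, above the 29.7 of the 10 genes.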

How the data were processed

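ATAC-seq was performed on cells of isolated islets, with 1 library for WT, Taf4 KO 1 week and Taf4 KO 5 weeks. Per the labels the authors used bcl2fastq 2.17.1.14, Bowtie 1.0.0 and MACS2 2.1.1 with mm9, and their methods name uniquely mapped reads. Peaks were called per library, not pooled. A control library, removal of duplicates or a shift of reads for the transposase is not given in the sources used here. The deposited lists hold the position of each broad peak, its fold over background (a ratio, column 7), −log10 p and −log10 q averaged over the peak by the authors' caller, and a display score that the authors' file derives from −log10 q and that was not used. Counts of reads were not used here, so the depth behind a peak is known only through fold and p.

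The largest peak ends were compared with the mm9 chromosome lengths, and 2 mitochondrial peaks per list were left out. Gene models were the protein-coding genes of GENCODE vM1. A promoter peak overlapped the 1000 bp upstream or the 100 bp downstream of any protein-coding start, and a locus was the gene body with 50 kb on each side. Regions were shared from 1 bp of overlap. Percentiles give the share of peaks with −log10 q at or below that of the peak. The background of each list was the percentile 1 of the background solved from fold and −log10 p, and 5 peaks at 5 weeks gave no solution. Calculations used Python 3.11.15, numpy 2.4.6, pandas 2.3.3 and scipy 1.17.1, and were tested on simulated lists, whose fold and p were not averages over peaks. Sequences are of mm9, and none of chromosome 18 is printed.

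The named genes were all 10 members, up to 6 per related list whose call differed between libraries, and neighbours whose promoter peak is described. The named distal regions were the strongest in WT per member. Regions not called in WT and at or above the percentile of 80 in both Taf4 KO lists were also to be named. So were regions at or above 80 in WT and called in neither Taf4 KO list, but no region met either rule. Other regions were named for their motifs or after their values were seen. The members and all lists were chosen with earlier results of these data known. No test was possible with 1 library per group. Alternatives were other thresholds of −log10 q, lists of equal number, lists scaled to the WT background, other promoter windows and starts, a reciprocal overlap and other flanks. The percentile among called promoters, that among promoters called in all 3 lists, their use with equal and scaled lists, and the ranks of shared distal regions with such lists were added after the data were seen.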

Additional observations from a re-analysis of the deposited data

Results flagged for a closer look

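The promoters of Fos, Fosb and Atf3 moved in opposite directions from WT at 1 week and at 5 weeks, which drew attention to them. The percentile among called promoters changed by -8.95 at 1 week and 12.7 at 5 weeks for Fos, a difference of 21.7 points. For Fosb the changes were -11.4 and 14.5, a difference of 25.9 points. The 1 week value of Fosb is that of the piece over the start, its WT peak being broken up at 1 week. For Atf3 they were -22.4 and 3.82, a difference of 26.2 points. Among all peaks with lists of equal number Fos, Fosb and Atf3 were below WT at 5 weeks too (75.3 against 79.6, 65.4 against 69.5 and 74.7 against 83.7), so that the directions were no longer opposite. Among the promoters called in all 3 libraries those of Fos and Fosb remained opposite, and that of Atf3 did not (38.5 against 41.4 at 5 weeks). With 1 library per group these differences were not tested.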

How the results depend on the processing

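A median change was taken to have moved beyond 5 percentile points, a count beyond 1.5 times, and a share outside its 95% Wilson interval. No replicate could be left out and no paired analysis was possible because each group has 1 library. With only peaks of −log10 q 5 or more, 2 genes, Jun and Egr1, had a promoter peak at 1 week. All other alternatives left the counts of promoter peaks of the 10 genes within 1.5 times. The median change of the promoter percentile at 1 week was -25.9 with −log10 q 3 or more, -8.52 with 5 or more, -31.3 with lists of equal number, -29.6 with lists scaled to the WT background, -8.95 among called promoters and -9.89 among those called in all 3 lists, -19.2 and -18.7 among called promoters of equal and of scaled lists (these 4 scales were chosen after seeing the data), and reversed to 4.98 with outermost starts only. At 5 weeks it was 17.7 with −log10 q 5 or more, 2.70 among promoters called in all 3 lists, 3.56 and 1.27 among called promoters of equal and of scaled lists, and reversed to -7.75 with equal numbers and -13.6 with scaled lists. Over all genes the median reversed at 1 week to -6.08 and -10.7 under these thresholds, -7.78 and -7.18 with equal and scaled lists and -1.98 and -1.84 among called promoters of these, and at 5 weeks to -4.81, -7.93, -0.504 and -1.78 with the same 4 and to -0.293 among promoters called in all 3 lists. Equal and scaled lists drop weak peaks of the longer lists by construction, which lowers percentiles.

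Peaks at the loci in WT, at 1 week and at 5 weeks numbered 37, 32 and 42 with flanks of 20 kb and 166, 113 and 180 with flanks of 100 kb, and 54 in WT and 28 at 1 week with −log10 q 5 or more. The share of distal WT peaks overlapped at 1 week was 69.4% and 71.4% with −log10 q 3 or more and 5 or more and 70.0% with flanks of 20 kb, and at 5 weeks 94.4% and 100% with the thresholds and 56.2% with a reciprocal overlap of 50%. The causes were not tested. Depth limits weak peaks most, and a peak not called is not a closed site.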
